A study of Mus musculus with 4 samples.

Results

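The cells described here are 2250 T cells from tumor-draining lymph nodes in which both receptor chains were read: 1072 cells that the authors named CD8_01, CD8_02 or CD8_03 (the CD8 class) and 1178 that they named Th1_01, Th1_02, Th1_03, Tfh or Treg (the CD4 class). They were chosen as barcodes with a productive contig of the alpha chain (TRA) and of the beta chain (TRB), joined to the authors' annotated cells. They are 2250 of the 3735 cells of those 8 types, of 4094 annotated T cells, and of 16017 barcodes in the series. The comparison asked which variable (V) and joining (J) segments, and which lengths and charges of the third complementarity-determining region (CDR3), differ in use between CD8 and CD4 cells. It was made inside each library apart, so the chow is no part of it. Where a pair of values is given without names, the control library comes first and the RGX-104 library second.

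The study took the nodes of wildtype mice on day 8 after tumor cell injection. T cells and antigen-presenting cells were sorted by flow cytometry. Their RNA was read cell by cell with the 10x 5' chemistry, and receptor transcripts of the same cells with the 10x VDJ kit. The control library came from mice on control chow. The RGX-104 library came from mice whose chow held RGX-104, a liver X receptor agonist, from day 3. All mice of both groups carried tumors. The strain, the tumor cells, the number of mice and whether nodes were pooled are not given in the sources used here. There is 1 RNA library and 1 receptor library per chow. Cells of a library are not replicates, so no p-value was computed. All intervals are 95% intervals of counting error only and do not cover the spread between mice. Reading the same direction in both libraries is the only check across samples. Intervals of ratios treat the counts as those of rare events, so they are too wide where a share is large.

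Each T cell receptor chain is assembled in the thymus from a V and a J segment, with a D segment between them in the beta chain. The V segment encodes CDR1 and CDR2, loops that mostly touch the MHC molecule, and the CDR3 spans the V to J junction and mostly touches the peptide. A thymocyte whose receptor binds MHC class I becomes a CD8 cell, and one whose receptor binds MHC class II becomes a CD4 cell, so the segments of mature cells have passed through a selection that differs between the classes. In mice, superantigens of endogenous retroviruses are known to delete T cells by their beta V segment.

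The following CDR3 sequences show what the compared chains look like: segments with the most unequal use, each by a chain seen in the most cells of the class that used it more, which here is 1 to 3 cells of that class. Letters are coding-strand bases read 5′ to 3′ from the deposited contigs, from the codon of the conserved cysteine to that of the conserved phenylalanine or tryptophan. Capitals at the start mark bases shared by at least 90% of cells with that V segment, and capitals at the end those shared by at least 90% of cells with that J segment. The lower-case middle is the part that varies. The first 3 lines are beta chains of CD8 cells, joined to TRBJ2-7, TRBJ2-1 and TRBJ2-1, and the next 2 are beta chains of CD4 cells, joined to TRBJ1-1 and TRBJ2-7.
TRBV12-2: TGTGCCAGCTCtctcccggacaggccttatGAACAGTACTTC
TRBV12-1: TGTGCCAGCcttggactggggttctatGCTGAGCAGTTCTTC
TRBV29: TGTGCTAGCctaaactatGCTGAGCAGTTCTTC
TRBV2: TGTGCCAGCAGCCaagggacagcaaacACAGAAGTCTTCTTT
TRBV31: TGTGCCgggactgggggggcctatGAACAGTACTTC

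The alpha chains follow in the same form. The chains of TRAV16 (with TRAJ48) and TRAV12 (TRAV12-1 with TRAJ49) are from CD8 cells and that of TRAV4 (TRAV4-4-DV10 with TRAJ37) is from CD4 cells. The chain of TRAV14 (TRAV14N-3 with TRAJ22) was read in 8 cells of 8 different clonotypes, 5 of them CD8 and 3 CD4.
TRAV16: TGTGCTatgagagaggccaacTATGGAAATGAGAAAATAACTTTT
TRAV12: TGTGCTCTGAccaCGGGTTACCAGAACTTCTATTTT
TRAV14: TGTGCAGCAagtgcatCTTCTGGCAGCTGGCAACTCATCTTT
TRAV4: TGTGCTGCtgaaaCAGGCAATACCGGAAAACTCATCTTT

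In the 5 beta chains the shared V start covers 6 to 13 of 33 to 42 bases and the middle 9 to 19. Most of a V segment, with its CDR1 and CDR2, lies upstream of the CDR3 and is not printed here.

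The authors' classes were checked against coreceptor transcripts. Of CD8 cells, 94.5% of the control library and 94.5% of the RGX-104 library had a Cd8b1 molecule (UMI), against 9.62% and 9.96% of CD4 cells. Cd4, the class II coreceptor, was read in 64.6% and 68.3% of CD4 cells and in 0.649% and 1.10% of CD8 cells. Foxp3, the transcription factor of regulatory T cells, was read in 80.3% and 86.0% of Treg cells and in 1.49% and 1.55% of other CD4 cells. Bcl6, the factor of follicular helper cells, was read in 33.0% and 28.8% of Tfh cells and in 5.67% and 5.19% of other CD4 cells. The Th1 markers went against the name Th1: Tbx21 was read in 0.196% and 0% of the 511 and 393 Th1_01 to Th1_03 cells, Cxcr3 in 0.196% and 1.02%, and Ifng in 0% and 0%. These cells are therefore called only by the authors' type names and count here as CD4 cells. Whether receptor genes entered the clustering behind the types is not given in the sources used here.

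The control library held 988 cells of the CD8 and 961 of the CD4 types, and the RGX-104 library 938 and 848. A productive pair was found in 62.3% of CD8 (59.2 to 65.4) and 70.3% of CD4 cells (67.3 to 73.2) of the control library, and in 48.6% (45.4 to 51.9) and 59.2% (55.8 to 62.5) of the RGX-104 library. Cells with a beta chain alone made up most of the rest: 208 CD8 and 168 CD4 cells, and 293 and 197. Median contig depth over all contigs was 3 UMIs for TRA in both libraries and 8 and 7 for TRB. Within the classes the TRA median was 3 in CD8 and 3 in CD4 cells of the control library. In the RGX-104 library it was 2 in CD8 and 3 in CD4 cells. Median RNA depth was 5396 and 5490 UMIs in CD8 and 4395 and 4451 in CD4 cells of these types. The part of the unequal pairing in the results was not tested beyond the RNA values given below. Of the paired cells, 5 carry a barcode that occurs in both libraries. Summed markers of other lineages stood, over both classes and libraries, at 3.67 to 12.2 CPM (UMIs scaled to a library of fixed size) for 3 gamma delta genes, 2.20 to 6.19 for 3 innate-like and NK genes, 8.79 to 15.4 for 3 B cell genes, and 91.5 to 144 for 3 myeloid genes, of which Cst3 gave most. Zbtb16 was at 0 in control CD8 cells and Ncr1 in RGX-104 CD4 cells.

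The share of cells that used a beta V segment differed between the classes for several segments. A segment counts as measured with at least 20 cells over both classes in each library, and as called when its share of cells differs at least 1.5-fold between CD8 and CD4 in the same direction in both libraries. Of 19 measured TRBV segments, out of 22 seen, 5 were called higher in CD8 (26.3% of those measured) and 5 lower (26.3%). Chains of the higher 5 made up 32.6% of CD8 and 8.73% of CD4 cells in the control library, against 37.1% and 11.0% in the RGX-104 library. Chains of the lower 5 made up 9.90% and 27.8%, and 9.21% and 24.3%. These sums describe groups chosen by the same values.

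TRBV12-2, in the older nomenclature Tcrb-V5.1, lies at chr6:41118864-41119364 of GRCm38 and had the most unequal use. It was carried by 41 of 616 CD8 cells (6.66%) and 5 of 676 CD4 cells (0.740%) in the control library. The RGX-104 library had 30 of 456 (6.58%) and 4 of 502 (0.797%). The ratio of shares, CD8 to CD4, was 8.999 (3.56 to 29.2) and 8.26 (2.91 to 32.3). In both libraries the CD8 share lay far above the CD4 share, and the CD4 share was nearly the same in both.

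TRBV12-1 (Tcrb-V5.2, chr6:41113567-41114067) was carried by 51 CD8 and 10 CD4 cells in the control library, 8.28% and 1.48%, a ratio of 5.60 (2.81 to 12.4). For the RGX-104 library the numbers were 34 and 5 cells, 7.46% and 0.996%, with a ratio of 7.49 (2.91 to 24.5). TRBV29 (Tcrb-V7, chr6:41271403-41271881) was carried by 46 CD8 and 8 CD4 cells in the control library, 7.47% and 1.18%, a ratio of 6.31 (2.95 to 15.5). Among RGX-104 cells it was carried by 44 and 12, 9.65% and 2.39%, which gives 4.04 (2.10 to 8.396). RefSeq lists TRBV29 as a V segment pseudogene, while 110 paired cells here carried it in a productive chain. A chain with 1 of TRBV12-1, TRBV12-2 and TRBV29 was thus present in 22.4% of CD8 (19.2 to 25.9) and 3.40% of CD4 cells (2.17 to 5.06) of the control library. The RGX-104 library had 23.7% (19.9 to 27.9) and 4.18% (2.61 to 6.32). The ratios were 6.58 (4.21 to 10.7) and 5.66 (3.52 to 9.52). TRBV12-1, TRBV12-2 and TRBV29 had the highest measured ratios in these same cells, so their sum is a description and no separate support.

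**Figure D1:**
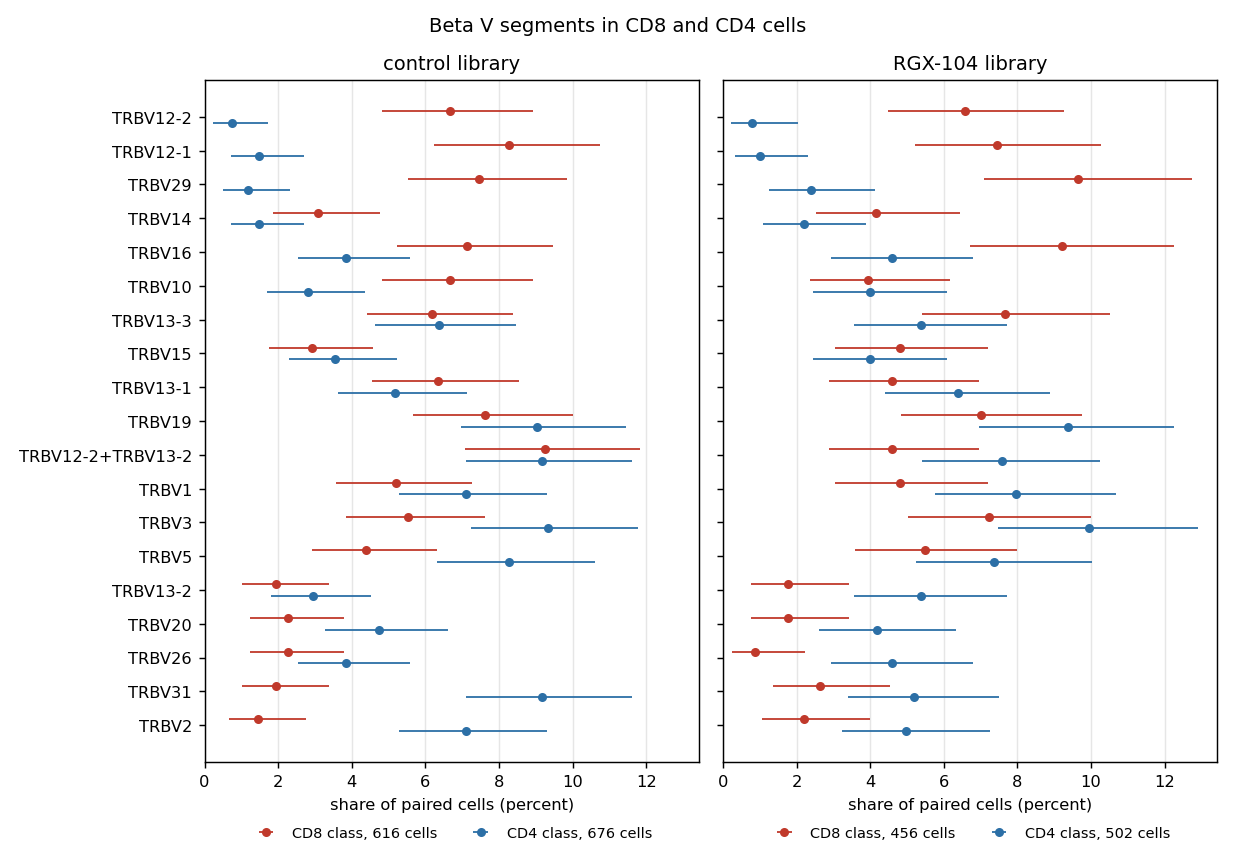
Share of paired cells (percent, x axis) with each of the 19 measured beta V segments (y axis, ordered by the mean log2 ratio), CD8 class in red and CD4 class in blue, for the control (left) and RGX-104 library (right); bars are 95% Clopper-Pearson intervals. TRBV12-2, TRBV12-1 and TRBV29 sit at 6.58% or more in CD8 and 2.39% or less in CD4 cells of both libraries. TRBV2 and TRBV31 at the bottom lie higher in the CD4 class taken as a whole.

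Of the other called segments, TRBV16 (Tcrb-V11, chr6:41151791-41152230) was at 7.14% in CD8 and 3.85% in CD4 cells of the control library, a ratio of 1.86 (1.12 to 3.14). Its RGX-104 shares were 9.21% and 4.58%, a ratio of 2.01 (1.18 to 3.502). TRBV14, named here because its call was counted, had ratios of 2.09 and 1.90 whose intervals both include 1. In the other direction, TRBV2 (Tcrb-V4, chr6:41047556-41047995) was carried by 9 CD8 and 48 CD4 cells of the control library, 1.46% and 7.10%, a ratio of 0.206 (0.0888 to 0.424). Of RGX-104 cells, 10 and 25 carried it, 2.19% and 4.98%, a ratio of 0.440 (0.189 to 0.949). TRBV31 (Tcrb-V14, chr6:41557693-41558371), the segment that lies downstream of the J segments and joins by inversion, was carried by 12 CD8 and 62 CD4 cells of the control library, 1.95% and 9.17%, a ratio of 0.212 (0.104 to 0.398). Of RGX-104 cells, 12 and 26 carried it, 2.63% and 5.18%, a ratio of 0.508 (0.234 to 1.043), so that the interval there reaches 1.

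TRBV20 (Tcrb-V15, chr6:41188273-41188977) was at 2.27% and 4.73% in the control library, a ratio of 0.480 (0.237 to 0.926). The RGX-104 shares were 1.75% and 4.18%, a ratio of 0.419 (0.161 to 0.986). TRBV26 had ratios of 0.591 (0.285 to 1.17) and 0.191 (0.0481 to 0.560). TRBV13-2 had ratios of 0.658 and 0.326, but its call rests on a naming choice. The contig tables give 178 further cells the combined name TRBV12-2+TRBV13-2, and of the 173 of these with 1 leading Trbv gene in the RNA, 172 had Trbv13-2. With those cells merged into TRBV13-2 the ratios were 0.923 and 0.491 and the call was gone.

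Several abundant beta segments were not called. TRBV19 (Tcrb-V6) had ratios of 0.846 (0.565 to 1.26) and 0.750 (0.463 to 1.20), TRBV1 (Tcrb-V2) 0.732 (0.453 to 1.17) and 0.605 (0.343 to 1.044), and TRBV3 (Tcrb-V16) 0.592 (0.378 to 0.913) and 0.727 (0.453 to 1.15). TRBV13-1 lay on opposite sides of 1, at 1.22 (0.755 to 1.99) and 0.722 (0.396 to 1.29), as did TRBV13-3, at 0.970 (0.610 to 1.54) and 1.43 (0.839 to 2.45). All of these intervals include 1 except that of TRBV3 in the control library, so a difference within them was not detectable at this depth. TRBV10, like TRBV3 and TRBV5, had an interval off 1 in the control library only, at 2.37 (1.34 to 4.32) against 0.991 (0.494 to 1.97), and the difference between libraries was not tested. TRBV17, TRBV23 and TRBV30 had too few cells to be measured.

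The 2 libraries ordered the beta segments much alike. Of the 19, 14 lay on the same side of a ratio of 1 in both, and for 6 the interval excluded 1 in the same direction in both libraries (TRBV12-1, TRBV12-2, TRBV16, TRBV2, TRBV20 and TRBV29) and for 0 in opposite directions. Across the 19 segments the log2 ratios of the 2 libraries had a Pearson correlation of 0.865, given as a description, since shares within a library sum to 1.

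**Figure D2:**
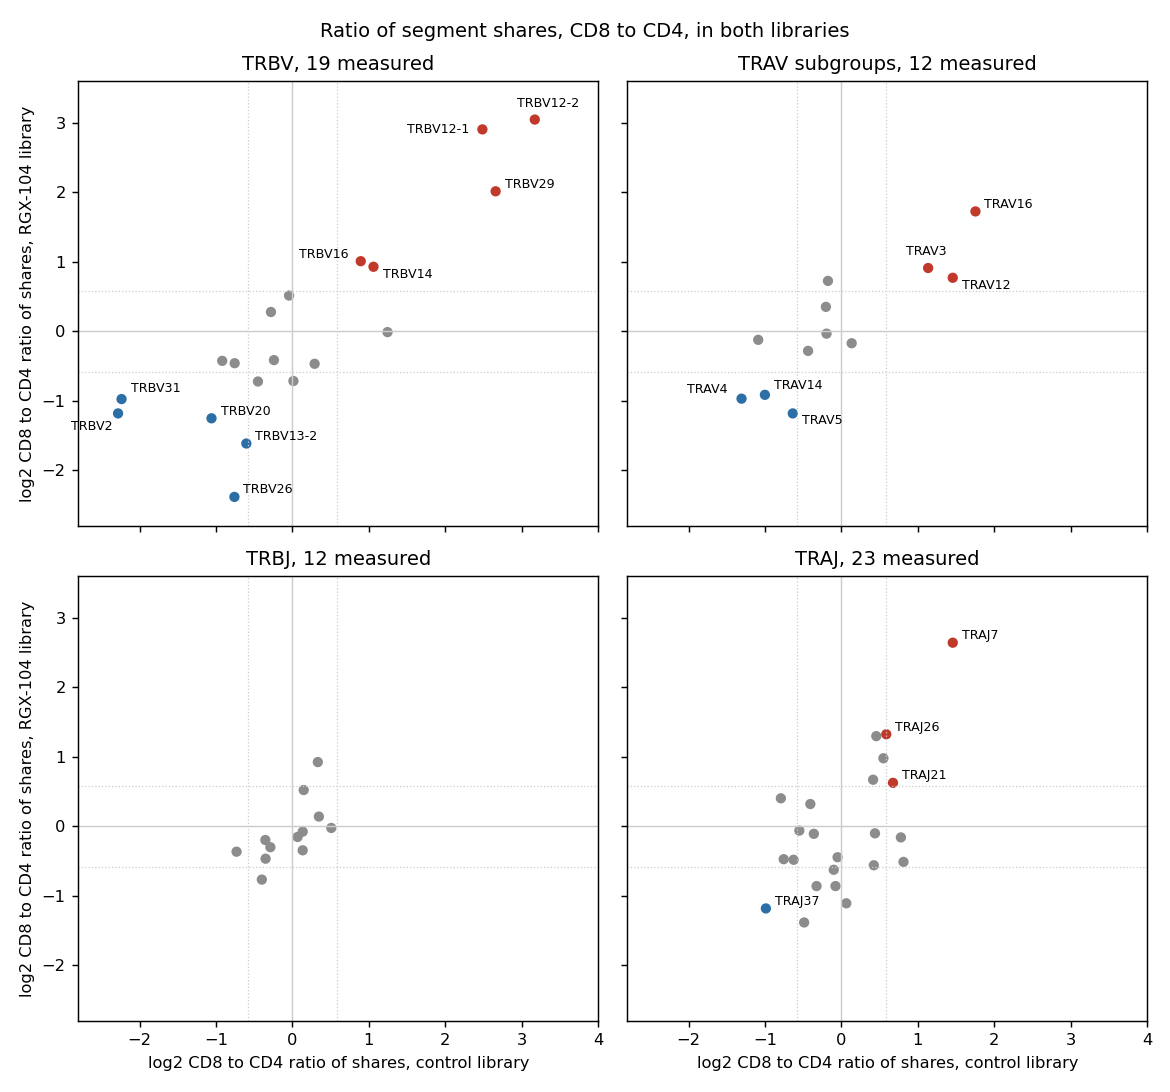
Log2 ratio of shares, CD8 to CD4, in the control (x axis) and the RGX-104 library (y axis), 1 point per measured segment in 4 panels (19 TRBV, 12 TRAV subgroups, 12 TRBJ, 23 TRAJ); dotted lines mark 1.5-fold, and segments called higher (red) or lower (blue) in CD8 are named. Points of the V segments spread along the diagonal, with TRBV12-2 farthest from the origin, while the TRBJ points gather near it and none is called.

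The RNA library gave a second reading of the beta V segment in the same cells. In 98.0% to 98.6% of cells per class and library with 1 leading Trbv gene, that gene was the contig's, after 2 names were matched. Contigs named TRBV10 had Trbv4 as the leading RNA gene in 88 of 90 cells and Trbv10 in 0. RefSeq lists Trbv10 as a pseudogene and gives Trbv4 the older name Tcrb-V10. Over all cells of the classes, paired or not, the RNA ratios were 6.91 (3.76 to 13.9) and 6.12 (3.23 to 12.8) for TRBV12-1, 8.89 (3.83 to 25.3) and 5.02 (2.45 to 11.6) for TRBV12-2, and 4.02 (2.25 to 7.61) and 3.84 (2.28 to 6.81) for TRBV29. In that reading TRBV16 was not called, at 1.49 and 1.58, nor was TRBV13-2. TRBV3, at 0.626 and 0.616, and TRBV5, at 0.436 and 0.625, were called lower, and TRBV17, at 2.69 and 2.07, higher. The RNA read TRBV5 less well: of 145 cells with a TRBV5 contig, 90 had 1 leading Trbv gene, and in 76 it was Trbv5.

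Cells without a productive pair share no cell with the contig counts, but they are part of the RNA counts over all cells. There TRBV12-1 had ratios of 8.86 (2.79 to 45.1) and 5.31 (2.10 to 17.2), TRBV29 1.95 (0.717 to 6.15) and 4.79 (1.88 to 15.6), and TRBV31 0.249 (0.0897 to 0.603) and 0.353 (0.159 to 0.745). TRBV12-2 had 5.47 (1.26 to 49.6) and 2.72 (0.997 to 9.22) in too few cells to be measured. TRBV2 stood at 0.995 (0.420 to 2.42) and 0.252 (0.0888 to 0.631) and TRBV16 at 0.834 (0.386 to 1.81) and 1.12 (0.572 to 2.28). Outside the pairs the interval of TRBV16 thus included 1 in both libraries, and that of TRBV2 in the control library.

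The alpha V subgroups also differed between the classes, with measured ratios between 0.404 and 3.37. All members with the same TRAV number, with their duplicated copies (named D and N), were merged into 20 subgroups, of which 12 were measured. Of these 12, 3 were called higher in CD8 (25.0%) and 3 lower (25.0%). Members of the TRAV locus lie on chromosome 14.

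TRAV16 was carried by 43 CD8 and 14 CD4 cells of the control library, 6.98% and 2.07%, a ratio of 3.37 (1.81 to 6.67). The RGX-104 library held 27 and 9 such cells, 5.92% and 1.79%, a ratio of 3.30 (1.51 to 7.98). Its 3 members were not alike: TRAV16 itself was in 17 CD8 and 2 CD4 cells and then in 9 and 1, TRAV16D-DV11 in 9 and 0 and then in 5 and 0, and TRAV16N in 17 and 12 and then in 13 and 8. No member alone reached 20 cells in each library except TRAV16N, whose ratios were 1.55 (0.6997 to 3.57) and 1.79 (0.687 to 4.98). For TRAV16D-DV11, with 0 of 676 and of 502 CD4 cells, the limit of 3 counts is a share of 0.444% and 0.598%. The Clopper-Pearson intervals of these counts reach 0.544% and 0.732%.

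TRAV12 was the subgroup with the largest share in control CD8 cells. It was carried by 120 CD8 and 48 CD4 cells of the control library, 19.5% and 7.10%, a ratio of 2.74 (1.95 to 3.92). The RGX-104 library held 65 and 42 such cells, 14.3% and 8.37%, a ratio of 1.70 (1.14 to 2.57). Among its members TRAV12-2 had ratios of 5.30 (2.16 to 15.6) and 3.74 (1.33 to 13.0), and TRAV12D-3 5.49 (2.40 to 14.6) and 1.54 (0.757 to 3.21). The third measured member, TRAV12D-2, had 3.17 (1.44 to 7.69) and 1.10 (0.433 to 2.80). TRAV12-3, with too few cells to be measured, ran the other way in the control library, in 10 CD8 and 17 CD4 cells. TRAV3 was at 7.47% and 3.40%, a ratio of 2.19 (1.30 to 3.79), and at 6.36% and 3.39%, a ratio of 1.88 (0.998 to 3.64).

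TRAV14 was about 2-fold more used by CD4 cells. It was carried by 51 CD8 and 112 CD4 cells of the control library, 8.28% and 16.6%, a ratio of 0.4997 (0.352 to 0.702). In RGX-104 cells the numbers were 39 and 81, 8.55% and 16.1%, a ratio of 0.530 (0.352 to 0.786). TRAV4 was at 3.41% and 8.43%, a ratio of 0.404 (0.233 to 0.677), and at 4.17% and 8.17%, a ratio of 0.510 (0.280 to 0.899). TRAV5 had ratios of 0.643 (0.332 to 1.21) and 0.440 (0.205 to 0.886). The large subgroups TRAV7 and TRAV6 were not called, with ratios of 0.874 (0.646 to 1.18) and 0.976 (0.710 to 1.34) for TRAV7 and 0.739 (0.533 to 1.02) and 0.822 (0.558 to 1.20) for TRAV6. TRAV9 had 1.10 (0.726 to 1.66) and 0.887 (0.524 to 1.49). Members of uncalled subgroups were not all alike. TRAV9D-3, with too few cells to be measured, was in 18 CD8 and 4 CD4 cells and then in 15 and 1. TRAV9-1, also unmeasured, ran the other way, in 3 and 8 and then in 1 and 12. Of 3 measured TRAV7 members, TRAV7D-2 was called lower, at 0.439 (0.218 to 0.837) and 0.635 (0.313 to 1.24).

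**Figure D3:**
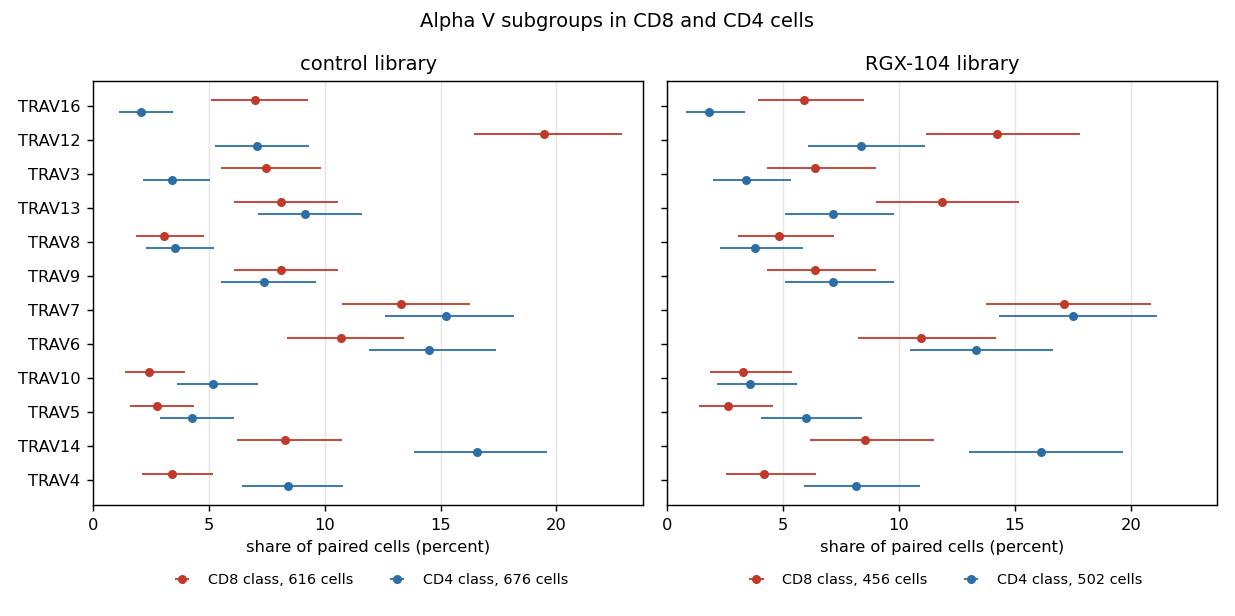
Share of paired cells (percent, x axis) with each of the 12 measured alpha V subgroups (y axis, ordered by the mean log2 ratio), CD8 class in red and CD4 class in blue, in the control (left) and RGX-104 library (right); bars are 95% Clopper-Pearson intervals. TRAV16 and TRAV12 lie higher in CD8 and TRAV14 and TRAV4 higher in CD4 cells of both libraries; TRAV13 and TRAV10 differ in 1 library each.

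TRAV19, below the minimum of cells, was found in 13 CD8 and 2 CD4 cells and then in 8 and 2. TRAV1 and TRAV11, the subgroups of the invariant chains of MAIT and NKT cells, were found in 6 and 8 of the 2250 cells, and their use could not be compared. For the alpha subgroups 9 of 12 ratios lay on the same side of 1 in both libraries, and 4 had intervals off 1 in the same direction in both (TRAV12, TRAV14, TRAV16 and TRAV4).

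Alpha and beta use of the classes were next read in the same cell, as a description of groups chosen by their values. Of the 67 control cells with both a beta and an alpha V segment called higher in CD8, 91.0% (81.5 to 96.6) were CD8 cells, as were 81.1% (68.0 to 90.6) of 53 in the RGX-104 library. Of cells with both chains from the segments called lower, 19.7% (10.9 to 31.3) of 66 and 14.6% (5.57 to 29.2) of 41 were CD8 cells. Cells with neither were 42.7% and 42.9% CD8. Inside a class the order was not the same: among control CD8 cells an alpha segment called higher was found in 30.3% of cells with a beta segment called higher, 36.2% with an uncalled one and 32.8% with one called lower. For RGX-104 CD8 cells these shares were 25.4%, 26.9% and 28.6%. In CD4 cells they were 10.2%, 12.1% and 14.4% in the control library and 18.2%, 10.2% and 20.5% in the RGX-104 library.

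All 12 J segments of the beta chain were measured, and none was called higher (0.0%) or lower (0.0%) in CD8. TRBJ2-1 had ratios of 1.26 (0.898 to 1.77) and 1.90 (1.24 to 2.94). TRBJ2-7 had 1.11 (0.842 to 1.46) and 1.43 (1.03 to 2.01), and TRBJ1-1 1.42 (1.03 to 1.97) and 0.983 (0.658 to 1.47). TRBJ1-4 was the lowest in the control library, at 0.602 (0.366 to 0.974) and 0.776 (0.473 to 1.26), and TRBJ1-3 in the RGX-104 library, at 0.758 (0.455 to 1.25) and 0.587 (0.299 to 1.11). The TRBJ2 cluster, the downstream set of beta J segments, made up 62.3% of CD8 and 63.6% of CD4 chains in the control and 67.3% and 61.6% in the RGX-104 cells. Those ratios, 0.980 and 1.09, lay on opposite sides of 1.

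The alpha J segments are spread over a long array. Of 43 TRAJ segments seen, 23 were measured, of which 3 were called higher (13.0%) and 1 lower (4.35%) in CD8. TRAJ7 (chr14:54211470-54211528) was carried by 15 CD8 and 6 CD4 cells of the control library, 2.44% and 0.888%, a ratio of 2.74 (1.01 to 8.63). Among RGX-104 cells 17 and 3 carried it, 3.73% and 0.598%, a ratio of 6.24 (1.80 to 33.2). TRAJ37 (chr14:54181518-54181577) was lower in CD8, carried by 17 and 37 cells and then by 12 and 30, with ratios of 0.504 (0.266 to 0.918) and 0.440 (0.205 to 0.886). TRAJ26, at 1.502 (0.7996 to 2.87) and 2.50 (1.19 to 5.63), and TRAJ21, at 1.60 (0.696 to 3.80) and 1.54 (0.637 to 3.88), passed the fold but had at least 1 interval that includes 1. TRAJ22, at 1.46 (0.864 to 2.51) and 1.97 (1.09 to 3.66), lay just short of it. With coreceptor RNA required, 15 TRAJ segments were measured and TRAJ7, TRAJ21 and TRAJ37 lost their calls.

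Along the array, CD8 chains used the 3′ segments, TRAJ2 to TRAJ22, more. These segments are reached by alpha rearrangements that delete more of the array. They made up 36.5% of CD8 and 26.8% of CD4 chains in the control library, a ratio of 1.36 (1.12 to 1.67). In RGX-104 cells they made up 39.9% and 32.7%, a ratio of 1.22 (0.984 to 1.52). Intervals of ratios are too wide for shares this large, so 1 inside the RGX-104 interval does not show that the difference there is unresolved. The middle segments, TRAJ23 to TRAJ39, had ratios of 0.824 (0.690 to 0.982) and 0.917 (0.744 to 1.13), and the 5′ segments 0.933 and 0.854. TRAJ18 and TRAJ33, the segments of the invariant NKT and MAIT chains, lay on opposite sides of 1 in the libraries, with 1.34 and 0.677 for TRAJ18 and 1.36 and 0.932 for TRAJ33.

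CDR3 length hardly separated the classes. Counted from the conserved cysteine to the conserved phenylalanine or tryptophan, alpha CDR3s had a mean of 13.6 ± 1.34 residues in CD8 (SD over 616 cells) and 13.5 ± 1.25 in CD4 cells (SD over 676 cells) of the control library. For RGX-104 cells the means were 13.5 ± 1.39 and 13.5 ± 1.30 residues. The difference, CD8 minus CD4, was 0.131 and then -0.0638 residues. Beta CDR3s had means of 13.8 ± 1.51 and 13.8 ± 1.37 residues and of 13.9 ± 1.49 and 13.8 ± 1.36, with differences of -0.0464 and 0.117. Neither chain kept a direction across the libraries. The share of CDR3s of at most 14 residues, the median, gave CD8 to CD4 ratios of 0.954 (0.842 to 1.08) and 0.997 (0.863 to 1.15) for alpha and 0.996 (0.872 to 1.14) and 0.941 (0.804 to 1.10) for beta chains. These intervals are too wide for shares this large, so 1 inside them does not show that the classes are equal. With the cut at 13 residues the control alpha ratio was 0.839.

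**Figure D4:**
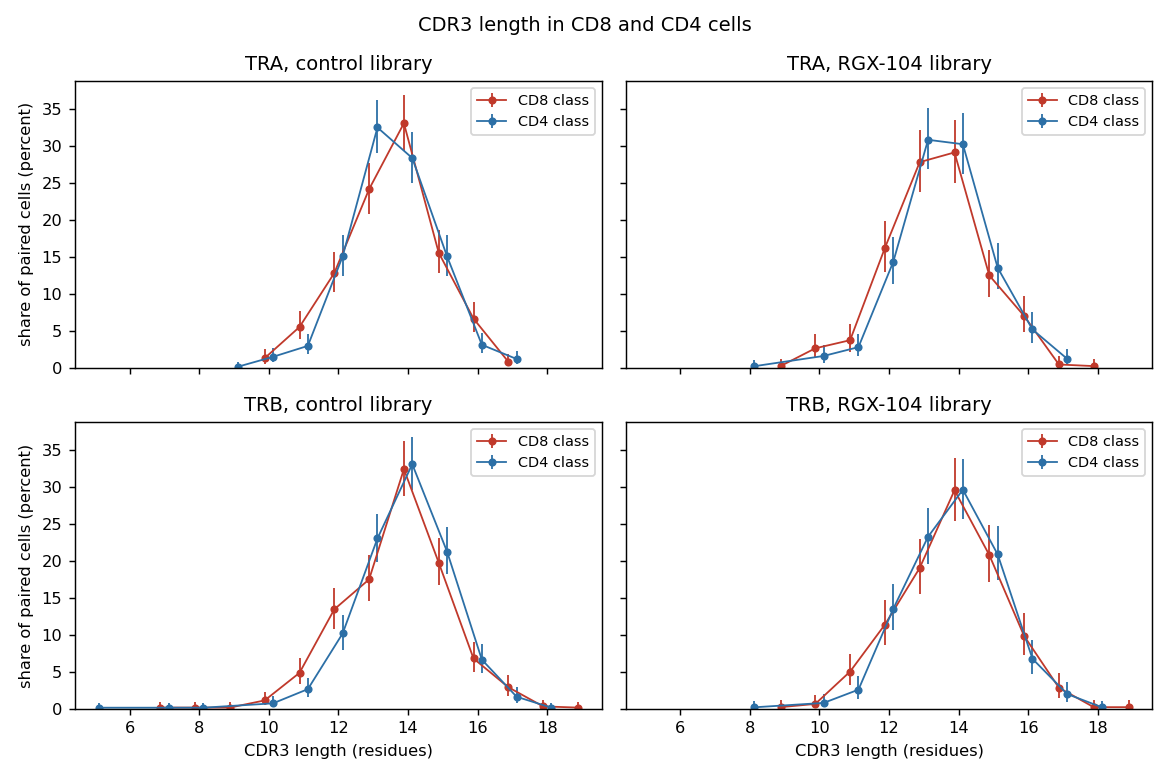
Share of paired cells (percent, y axis) by CDR3 length (residues, x axis) for alpha (top) and beta chains (bottom) in the control (left) and RGX-104 library (right), CD8 class in red and CD4 class in blue; bars are 95% Clopper-Pearson intervals. All curves peak at 13 or 14 residues, and the intervals of the classes overlap at every length except 13 and 16 residues of control alpha chains.

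Charge separated the alpha CDR3s where length did not. Net charge was counted as lysine and arginine minus aspartate and glutamate residues. An alpha CDR3 with a net negative charge was carried by 84 of 616 CD8 cells, 13.6% (11.0 to 16.6), and 36 of 676 CD4 cells, 5.33% (3.76 to 7.30), in the control library, a ratio of 2.56 (1.71 to 3.90). The RGX-104 library had 70 of 456, 15.4% (12.2 to 19.0), and 25 of 502, 4.98% (3.25 to 7.26), a ratio of 3.08 (1.93 to 5.08). The mean net charge was 0.506 in CD8 and 0.777 in CD4 cells, and then 0.377 and 0.755. Acidic residues gave the larger part: alpha CDR3s held 0.573 ± 0.727 (SD over cells) aspartate and glutamate residues in CD8 and 0.364 ± 0.548 in CD4 cells of the control library. In RGX-104 cells these were 0.623 ± 0.713 and 0.408 ± 0.553. Lysine and arginine stood at 1.08 and 1.14 and then at 1 and 1.16.

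The negative share remained higher in CD8 when the mix of V or J segments was made the same in both classes, weights chosen after seeing the data. With the same TRAJ mix it was 11.2% and 6.83%, a ratio of 1.64, and then 13.2% and 5.39%, a ratio of 2.45. With the same TRAV mix the ratios were 2.80 and 3.14. Among cells whose coreceptor RNA fitted their class the control ratio was 4.25. The RGX-104 ratio stayed between 2.45 and 3.57 over all 17 alternatives, so no rise of that size occurred there. Among the 23 measured TRAJ segments, CD8 chains had the higher negative share for 13 (control) and 14 (RGX-104) and the lower share for 3 and 3, with equal shares for the rest. Beta CDR3s, most of which were negative, differed little: 61.2% of CD8 and 59.5% of CD4 chains in the control library, a ratio of 1.03 (0.892 to 1.19), and 64.0% and 60.6%, a ratio of 1.06 (0.897 to 1.25).

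Hydrophobic residues (valine, isoleucine, leucine, methionine, phenylalanine, tryptophan or tyrosine) in the middle of the CDR3, without 3 residues at each end, were also more frequent in CD8 alpha chains. At least 1 was present in 72.9% of CD8 and 60.7% of CD4 alpha CDR3s of the control library, a ratio of 1.20 (1.05 to 1.38). Of RGX-104 cells it was 77.2% and 62.9%, a ratio of 1.23 (1.05 to 1.43). With the same TRAJ mix, weights chosen after seeing the data, these ratios were 1.03 and 1.09. For beta chains the ratios were 1.08 (0.938 to 1.24) and 1.09 (0.923 to 1.28). Both intervals include 1, but they too are too wide for shares this large.

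The main class differences were then read in each of the 8 types, each of which had 50 or more paired cells per library. A beta chain with TRBV12-1, TRBV12-2 or TRBV29 was carried by 22.1%, 21.6% and 25.6% of CD8_01, CD8_02 and CD8_03 cells in the control library and by 20.7%, 28.1% and 23.3% in the RGX-104 library. In CD4 types the share was 4.50%, 2.07% and 1.20% in Th1_01, Th1_02 and Th1_03, 2.13% in Tfh and 9.86% in Treg cells of the control library. For RGX-104 cells it was 4.22%, 2.70%, 5.17%, 1.69% and 8.00% in the same order. The CD8 and CD4 types did not overlap in either library, in the same cells in which these segments had the highest ratios. Treg cells held the highest share of the CD4 types in both, from 7 of 71 and 4 of 50 cells, with intervals of 4.06 to 19.3 and 2.22 to 19.2 that reach the values of other CD4 types.

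The negative alpha CDR3 was at 12.5% to 17.6% of cells in the 3 CD8 types and 1.41% to 6.90% in the 5 CD4 types over both libraries, with no overlap. The lowest CD4 values rest on 1 of 71 control Treg and 1 of 59 RGX-104 Tfh cells. Intervals of single types cross the classes, such as 1.25 to 16.5 in RGX-104 Treg cells. Hydrophobic alpha CDR3s overlapped, at 70.3% to 79.3% in CD8 and 51.7% to 70.4% in CD4 types, as did both beta measures. Of the 19 measured TRBV segments, 4 (21.1%) had no overlap between CD8 and CD4 types over both libraries (TRBV12-1, TRBV12-2, TRBV29 and TRBV2). TRBV2 was at 0% to 3.29% in CD8 types and 3.39% to 9.86% in CD4 types, where the lowest CD4 value rests on 2 of 59 Tfh cells. The highest CD4 share of TRBV12-2 likewise rests on 2 of 50 Treg cells, so at this depth the missing overlap of single segments depends on counts of a few cells. Of the measured TRAV, TRBJ and TRAJ segments, 0 (0.0%) were free of overlap. TRAV12, for example, reached from 13.3% to 25.6% in CD8 types and from 4.82% to 13.6% in CD4 types.

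**Figure D5:**
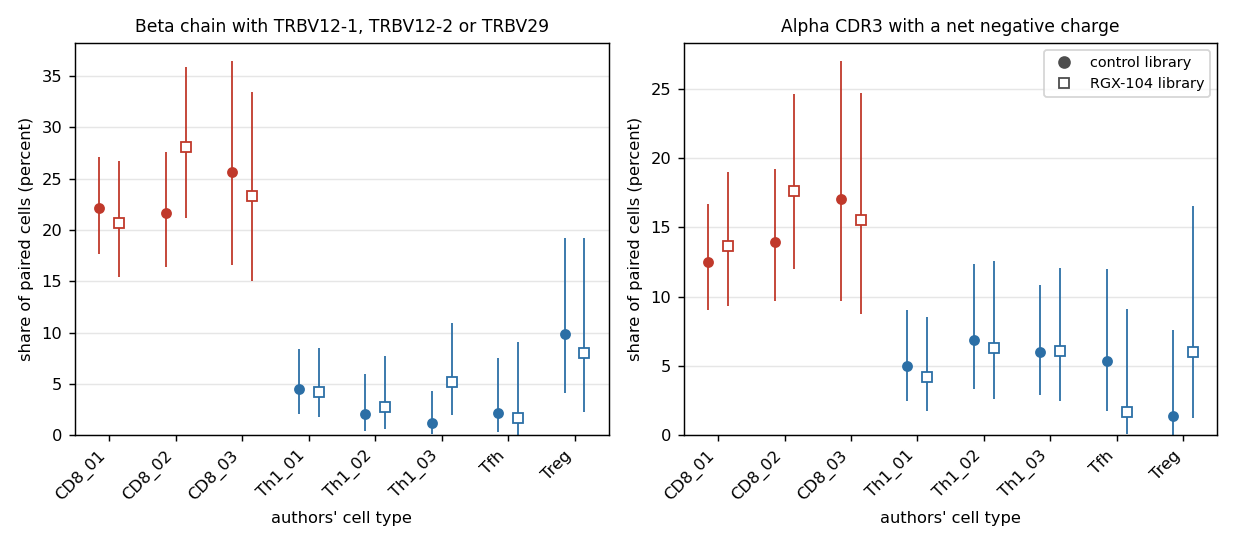
Share of paired cells (percent, y axis) with a beta chain of TRBV12-1, TRBV12-2 or TRBV29 (left) and with a net negative alpha CDR3 (right) in the authors' 8 cell types (x axis), CD8 types in red and CD4 types in blue; filled circles are the control and open squares the RGX-104 library, bars are 95% Clopper-Pearson intervals. Every CD8 type lies above every CD4 type in both panels, and Treg is the highest CD4 type in the left panel.

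Cells of the CD4 class with TRBV12-1, TRBV12-2 or TRBV29 were few, and their coreceptor transcripts were mostly those of their class. Of 23 such cells in the control library 13 had a Cd4 UMI and 1 a Cd8a or Cd8b1 UMI, and of 21 in the RGX-104 library 15 and 3. Among other CD4 cells 10.4% and 11.4% had a Cd8a or Cd8b1 UMI. When CD8 cells were required to have a Cd8a or Cd8b1 and no Cd4 UMI, and CD4 cells the reverse, TRBV31 in the RGX-104 library turned to a ratio of 1.20 and its call was lost. TRBV26 lost its call too. Under that requirement the calls of TRBV12-1, TRBV12-2, TRBV29, TRBV16, TRBV2 and TRBV20 remained.

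The use of segments was spread over many clonotypes. A clonotype is the V segment, J segment and CDR3 nucleotides of both chains. The 616 and 456 CD8 cells held 613 and 449 clonotypes and the 676 and 502 CD4 cells 668 and 496. No clonotype had more than 2 cells, and 0 were found in both classes of a library or in both libraries. Counting each clonotype once left all 10 TRBV, 6 TRAV and 3 of 4 TRAJ calls in place, with TRAJ26 lost. Of 2198 single alpha chains 25 occurred in at least 2 clonotypes and 6 in both classes, and of 2220 beta chains 5 and 2.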

How the data were processed

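Values in the deposited matrices are UMI counts, 1 per gene and barcode. Per the file headers they came from Cell Ranger 5.0.0. Seurat 5.0.3 and mm10 are named in the submitters' processing notes. The deposited contig tables hold UMI counts per assembled chain, and every listed contig is marked productive. The authors' annotation table gives a type name, UMI and gene counts and a mitochondrial share in percent, but no barcode. Each annotated T cell was joined by these 3 values, with genes seen in at least 3 barcodes; all 2099 control and 1995 RGX-104 cells matched 1 barcode. The RNA libraries held 31530931 and 38480769 UMIs and the contigs summed to 30819 and 27351. Doublets were not called here.

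Per cell the TRA and TRB contig with most UMIs was used. Shares carry Clopper-Pearson intervals and ratios of shares exact conditional binomial intervals (scipy 1.17.1, pandas 2.3.3, Python 3.11.15), tested on simulated data. A count of 0 is given an upper limit of 3 counts. Named segments are the 4 highest and 4 lowest of each kind, ranked by the interval bound nearest 1 in the weaker library, and a fixed list; others are named for a count. Positions come from RefSeq (GRCm38.p6). The segments, lists and rules were chosen with earlier results of these data known. The 21 planned and 5 added alternatives are in the closing section.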

Additional observations from a re-analysis of the deposited data

Results flagged for a closer look

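The difference in mean CDR3 length between CD8 and CD4 cells had opposite signs in the libraries: for alpha chains 0.131 residues in control and -0.0638 in RGX-104 cells, and for beta chains -0.0464 and 0.117. The difference between libraries was not tested.

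Among cells that the authors named gd T cells, which belong to neither class, 24.6% (16 of 65) of the control and 27.0% (10 of 37) of the RGX-104 library had a productive alpha and beta pair. Trdc, the delta chain constant gene, was read in 0 of 16 and 1 of 10 of the paired cells and in 27 of 49 and 9 of 27 of the unpaired ones.

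Receptor contigs were also assigned to 581 control and 774 RGX-104 barcodes that are not annotated T cells, and these were not used.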

How the results depend on the processing

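The ratio for TRBV12-1, TRBV12-2 or TRBV29 together ranged from 5.44 to 8.47 in the control and from 5.13 to 6.30 in the RGX-104 library over 15 alternatives each. These alternatives reuse the cells in which the same segments had the highest ratios. Counts of called segments moved more. The 10 TRBV calls became 6 with at least 3 UMIs in both contigs, 2 with a minimum of 50 cells, 5 at 2-fold, 6 with fold and interval together and 3 in the RNA of unpaired cells. With at least 3 UMIs, 3 of the 10 remained (TRBV12-2, TRBV16 and TRBV29), and 12 TRBV segments were measured. The other calls of that setting, TRBV1, TRBV3 and TRBV5, were new. The 6 TRAV calls became 3 with a minimum of 50 cells and 1 at 2-fold. The 0 TRBJ calls became 1 with exactly 1 TRA and 1 TRB contig, with at least 3 UMIs, with coreceptor RNA required, without CD8_01 or without CD8_03. The 4 TRAJ calls became 2 with at least 3 UMIs, 2 with coreceptor RNA required, 1 without Th1_03, 7 without CD8_02, 1 without CD8_03, 10 with a minimum of 10 cells, 0 with a minimum of 50, 1 at 2-fold and 2 with fold and interval together. Fewer segments could be measured at 50 cells, at 3 UMIs, with coreceptor RNA required (17 TRBV and 15 TRAJ) and in unpaired cells (11 TRBV); beyond that the cause was not tested.

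Among single values, TRBV16 reversed to 0.834 in the control library (RNA, unpaired cells) and TRBV31 to 1.20 in the RGX-104 library (coreceptor RNA required). The control ratio of short alpha CDR3s was 0.839 at 13 residues. The control ratio of negative alpha CDR3s was 4.25 with coreceptor RNA required and 1.64 with the same J mix, where that of hydrophobic alpha CDR3s was 1.03. The 5 alternatives on combined names, unpaired cells, shared barcodes and V or J mix were chosen after seeing the data. Contig depth limits what can be measured: with a median of 3 TRA UMIs over all contigs, 12 TRBV and 6 TRAJ segments were left at 3 UMIs. The part of depth in the changed calls was not tested. CD8 and CD4 cells were compared inside the same library, so each library gives 1 pair of values. With 1 library per chow, no test over such pairs was run.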

Other observations

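The invariant alpha chain TRAV11 with TRAJ18, known from NKT cells, was found in 16 annotated T cells: 12 gd T cells, 2 Tfh, 1 CD8_03 and 1 Bcat1+ T. Zbtb16, the transcription factor of these cells, had a UMI in 8 of the 16. Their CDR3s of 45 bases differed at base 12 alone, counted from the first base of the cysteine codon, and all 4 bases occurred there. The chains are printed in the order of their cells (6, 5, 3 and 2), with base 12 in capitals. Each of the 16 cells had its own clonotype, with a beta chain of TRBV1, TRBV29, a TRBV13 member or TRBV12-2+TRBV13-2.
version 1: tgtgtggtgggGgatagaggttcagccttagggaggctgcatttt
version 2: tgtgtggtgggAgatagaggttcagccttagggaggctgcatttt
version 3: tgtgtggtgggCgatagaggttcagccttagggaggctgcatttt
version 4: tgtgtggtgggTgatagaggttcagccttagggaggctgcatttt

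TRAV1 with TRAJ33, known from MAIT cells, was found in 3 cells, all named gd T cells. In the 4 types outside both classes, TRBV12-1, TRBV12-2 or TRBV29 was carried by 14.6% of 82 control and 12.3% of 114 RGX-104 cells with a pair, between the shares of the CD4 and CD8 classes.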
